A study of Homo sapiens with 96 samples.

Results

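Untreated MDA-MB-231 cells grown in 3D culture were compared with untreated cells of the same line in 2D culture. MDA-MB-231 is an established human breast cancer line of mesenchymal character that lacks the oestrogen and progesterone receptors. The members of the comparison were the arrays that the labels call control, with the treatment given as none, at all 8 time labels: 27 of the 96 arrays of the study. They came from 3 series, 3D04 (3D culture) and 2D03 and 2D04 (both 2D culture), with 9 control arrays each. Every series had 2 control arrays at 0 h and 1 at 0.5 h (written 05h in the labels), 1, 4, 8, 12, 24 and 48 h. All of these cells had been moved into low serum 24 h before time 0 and received neither EGF, nor the MEK inhibitor U0126, nor its vehicle DMSO. The other 69 arrays carried EGF, DMSO with EGF, or U0126 with EGF after 0 h, and DMSO or U0126 without EGF at 0 h. The labels give no matrix, scaffold or other method for the 3D culture, and they do not say what 03 and 04 mark. Nor do they say that any 2 arrays came from separate cultures. The times of a series served as its repeats, and a p-value reflects only the spread between these arrays, which may be technical.

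Cells in a flat layer spread on a stiff surface and share the medium evenly, whereas cells in a 3D culture meet neighbours and matrix on all sides and receive nutrients and oxygen by diffusion. A well studied response to scarce amino acids, oxidative stress or misfolded protein in the endoplasmic reticulum runs through kinases that phosphorylate the translation factor eIF2alpha. This slows protein synthesis but raises translation of the transcription factor ATF4, which in turn switches on amino acid synthesis enzymes, amino acid transporters, aminoacyl-tRNA synthetases and stress regulators. Oxygen shortage acts through other factors, the hypoxia-inducible factors, on glycolysis and angiogenesis genes.

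The 3D culture is a single series, so culture and series cannot be told apart, and a gene was called only where 3D04 differed from 2D03 and from 2D04 in the same direction, each with an adjusted p under 0.05 (limma, Benjamini-Hochberg over 11874 genes, a term for each series and each time). The 2D series differed from each other as well: 6261 genes (52.7%) passed between 2D04 and 2D03, of which 75 (0.632%) differed by at least 1 on the log2 scale. The spread of the differences over genes (SD) was 0.292 for 2D04 minus 2D03, 0.284 for 3D04 minus 2D04 and 0.445 for 3D04 minus 2D03. Over all genes 3D04 thus lay about as far from 2D04 as 2D04 lay from 2D03, and the widest difference was that from 2D03. With the series as the unit, in a fit on the 3 series means, 0 genes passed (884 had an unadjusted p under 0.05, smallest adjusted p = 0.145). With the series as a random replicate block, 856 genes passed, all of them among those called here and in the same direction. The block fit took the same correlation between arrays of a series for every gene (consensus correlation 0.403). Its p-values still rest partly on the times as repeats, because culture does not vary within a series. They can understate the spread between series for genes whose 2D series differ strongly, so passing with the block is not a test with the series as the unit. Of the 11874 genes, 437 were higher and 419 lower in the block fit, the background for the list counts given with the block below. Values are log2 differences from an unknown reference for each probe set, so no absolute level is given and cell identity could not be read from marker levels. The ratio of 5-prime to 3-prime signal for actin, a sign of RNA integrity, overlapped between the series, with log2 values from -0.03 to 0.21 in 2D03, from -0.36 to 0.11 in 2D04 and from -0.01 to 0.14 in 3D04. No leukocyte marker of 16 measured was called. The fibroblast list had 1 gene of 14 called higher (7.14%), S100A4, and the endothelial list 1 of 11 (9.09%), PECAM1. Both shares were below the 13.4% of all genes called higher, and with the block S100A4 passed and PECAM1 did not (adjusted p = 0.553). The median of the leukocyte list over an array lay between 0.02 and 0.24 in 2D03, between -0.13 and -0.02 in 2D04 and between -0.15 and -0.06 in 3D04. For the fibroblast list these ranges were -0.12 to 0.13, -0.26 to -0.08 and -0.23 to -0.09, and for the endothelial list 0.07 to 0.16, -0.05 to 0.04 and -0.13 to -0.02, so no 3D04 array stood above the highest 2D04 array in any of the 3 lists.

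Of the 11874 genes, 7703 (64.9%) differed between 3D04 and 2D03 and 3766 (31.7%) between 3D04 and 2D04. In total 2963 genes (25%) differed from both 2D series in the same direction: 1594 (13.4%) were higher in 3D04 and 1369 (11.5%) were lower. By at least 1 on the log2 scale, a 2-fold difference, 66 genes (0.556%) were higher and 67 (0.564%) were lower. In 178 genes (1.5%) all 9 3D arrays lay above all 18 2D arrays, and in 193 (1.63%) all lay below them. Of the 2963 called genes, 1658 also differed between 2D03 and 2D04, as did 52.7% of all genes. In 831 of the higher and 684 of the lower genes 2D04 lay between 2D03 and 3D04, with all 3 tests passed. In 2138 called genes both 3D differences were larger in size than the difference between the 2D series. Another 177 genes differed from both 2D series but in opposite directions, and were not called. The genes that were lowest in 3D04 were led by the metastasis suppressor KISS1 and by stress and amino acid genes of the ATF4 programme (NUPR1, CTH, SLC1A4, GDF15, ATF3, TRIB3, ASNS and PCK2). The highest were the hyaluronan-degrading protein CEMIP, the fatty acid carrier FABP4, the protease inhibitors CST1 and TFPI, and cadherin 11 (CDH11).

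**Figure D1:**
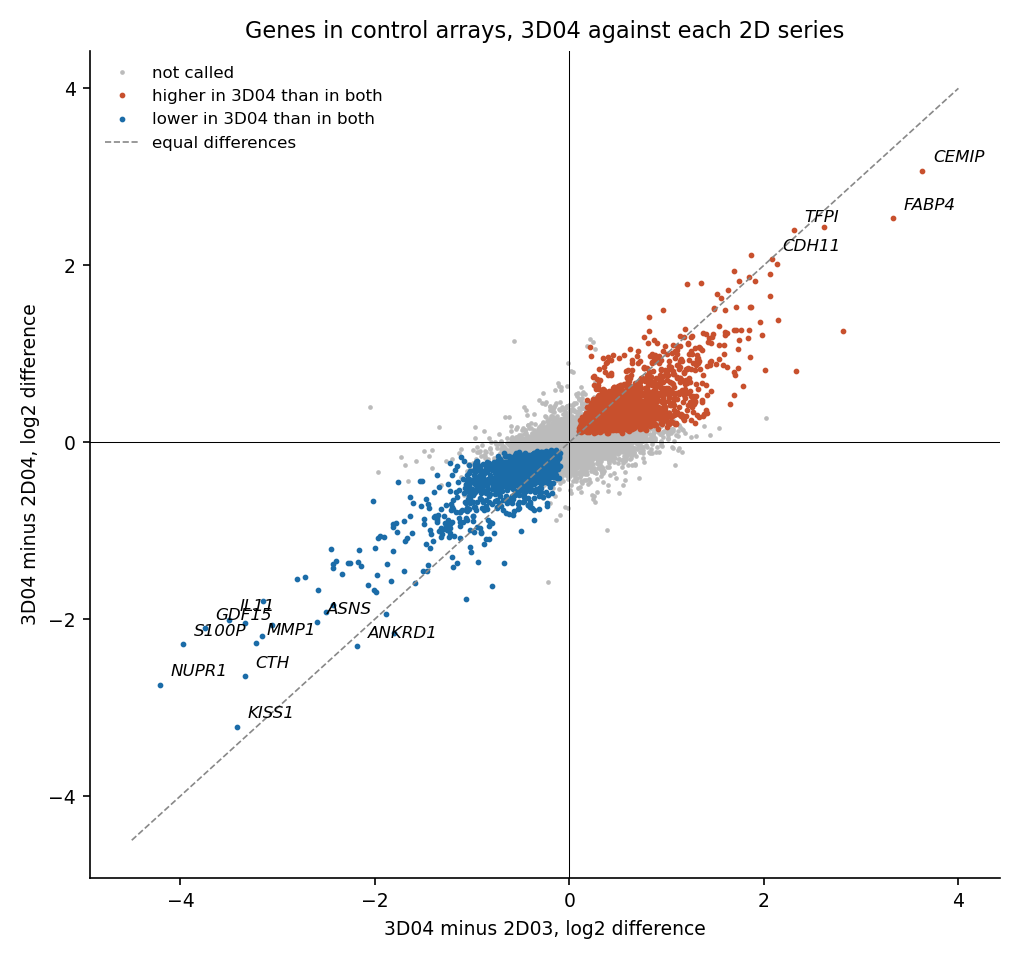
Each point is a gene, with the 3D04 minus 2D03 log2 difference on the horizontal axis and the 3D04 minus 2D04 log2 difference on the vertical axis, over the control arrays. Red points (1594) were higher and blue points (1369) lower in 3D04 than in both 2D series, grey points were not called, and the dashed line marks equal differences. S100P, GDF15, IL11 and NUPR1 lie farthest to the left of that line among the called genes, each lower against 2D03 than against 2D04.

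NUPR1, a small stress-induced chromatin protein, lay between -1.23 and -0.04 in the 2D03 arrays (median -0.20), between -3.07 and -1.40 in 2D04 (median -1.63) and between -4.90 and -4.09 in 3D04 (median -4.64). All 3D arrays were below all 2D arrays, and the 2D series were themselves apart. The difference was -4.21 (SE 0.18, adjusted p = 1.24e-14) against 2D03 and -2.74 (SE 0.18, adjusted p = 7.27e-11) against 2D04, or 6.68-fold to 18.5-fold lower. CTH, the cystathionine gamma-lyase that makes cysteine, lay between 2.16 and 2.97 in 2D03 (median 2.80), between 0.11 and 2.52 in 2D04 (median 2.36) and between -0.95 and 0.79 in 3D04 (median -0.78). The groups overlapped through the 48 h arrays only: there 2D04 stood at 0.11 and 3D04 at 0.79, whereas at every earlier time CTH was at or above 1.83 in 2D and at or below -0.37 in 3D. The differences were -3.34 (SE 0.26, adjusted p = 1.62e-10) against 2D03 and -2.64 (SE 0.26, adjusted p = 3.17e-08) against 2D04. GDF15, a secreted stress cytokine of the TGF-beta family, lay between 1.60 and 2.44 in 2D03 (median 2.32), between -0.41 and 1.03 in 2D04 (median 0.65) and between -1.83 and -0.92 in 3D04 (median -1.66). No 3D array reached the 2D range, and the differences were -3.74 (SE 0.15, adjusted p = 8.00e-15) and -2.11 (SE 0.15, adjusted p = 3.12e-10). GDF15 had 2 probe sets, and the other probe set had a mean difference of -0.06 and was not called the same way.

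KISS1 differed by similar amounts from both 2D series. The KISS1 product, kisspeptin, is a secreted peptide best known for suppressing metastasis and for its role in puberty. Its values lay between 2.11 and 3.43 in 2D03 (median 2.56), between 1.94 and 2.74 in 2D04 (median 2.45) and between -0.98 and -0.55 in 3D04 (median -0.87). The 2D series overlapped, with a difference between them of -0.21 (SE 0.12, adjusted p = 0.145). KISS1 was lower in 3D04 by -3.42 (SE 0.12, adjusted p = 6.54e-16) and -3.21 (SE 0.12, adjusted p = 7.74e-15), or 9.28-fold to 10.7-fold.

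CEMIP, which binds and breaks down hyaluronan, lay between -0.88 and 0.34 in 2D03 (median -0.44), between -0.71 and 1.98 in 2D04 (median -0.21) and between 2.77 and 3.77 in 3D04 (median 3.22). All 3D arrays were above all 2D arrays, although 2D04 stood at 1.83 and 1.98 at 24 and 48 h. The differences were 3.63 (SE 0.23, adjusted p = 5.73e-12) and 3.07 (SE 0.23, adjusted p = 4.23e-10), or 8.40-fold to 12.4-fold. The other CEMIP probe set had a mean difference of -0.14, so this result rests on 1 of 2 probe sets. CDH11, a mesenchymal cadherin that joins cells to each other, lay between 1.40 and 2.54 in 2D03 (median 1.79), between 1.10 and 3.33 in 2D04 (median 1.57) and between 3.64 and 4.53 in 3D04 (median 3.77). It was higher by 2.08 (SE 0.11, adjusted p = 4.38e-13) and 2.07 (SE 0.11, adjusted p = 5.24e-12), with the same call for both of its probe sets, and the 2D series did not pass between them (0.01, adjusted p = 0.924).

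**Figure D2:**
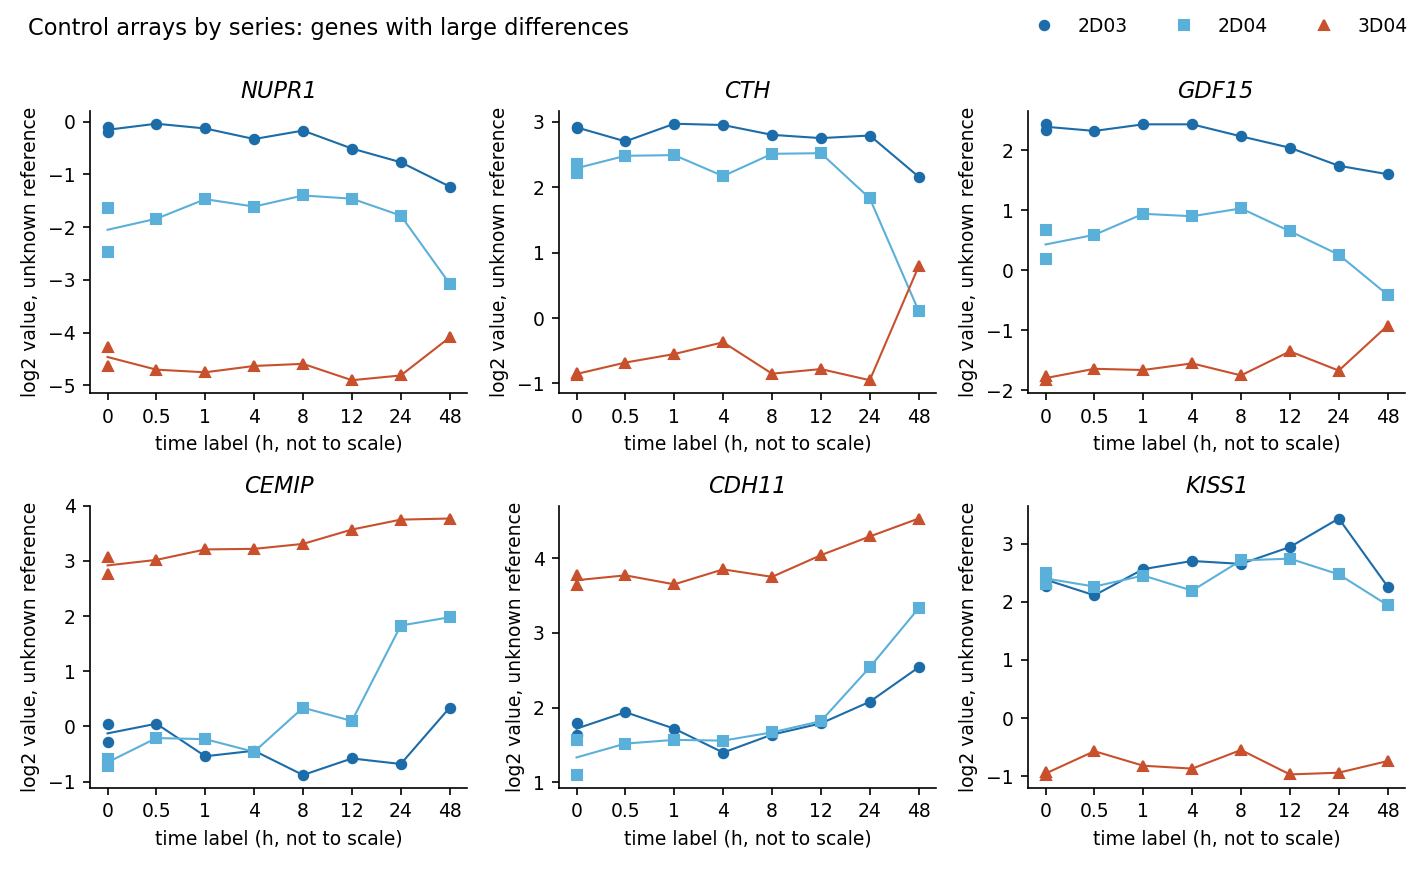
Values of 6 genes in each control array (log2, relative to an unknown reference) against the time label in h, with the axis in label order and not to scale. Circles are 2D03, squares 2D04 and triangles 3D04, and lines join the means at each time. NUPR1, GDF15 and KISS1 lie lowest in 3D04 at every time, CEMIP and CDH11 lie highest, and for CTH the 3D04 and 2D04 values change order at 48 h.

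Among the other genes highest in 3D04, TFPI, the tissue factor pathway inhibitor that restrains clotting, lay between 2.97 and 4.22 in 3D04 (median 3.10) against at most 1.46 in any 2D array. Its differences were 2.30 (SE 0.16, adjusted p = 3.56e-11) and 2.39 (SE 0.16, adjusted p = 1.21e-10), and 4 of its 5 probe sets were called the same way. F3, the tissue factor that TFPI inhibits, was lower in 3D04, by -0.98 (SE 0.07, adjusted p = 6.36e-11) and -1.02 (SE 0.07, adjusted p = 2.02e-10), with all 3D arrays (1.97 to 2.44) below all 2D arrays (2.98 to 3.43). Both genes of this pair thus differed by similar amounts from the 2 2D series, in opposite directions. FABP4, a fatty acid carrier known from adipocytes and macrophages, lay between -0.70 and -0.39 in 2D03 and between 2.20 and 3.38 in 3D04. In 2D04 it stood between -0.71 and -0.21 up to 12 h, at 1.51 at 24 h and at 3.39 at 48 h, so that by 48 h the 2D04 array was above the 3D04 array. Its overall differences were 3.32 (SE 0.30, adjusted p = 1.61e-09) and 2.53 (SE 0.30, adjusted p = 5.07e-07).

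CST1 and CST4, secreted cystatins that inhibit cysteine proteases, were higher by 2.62 (SE 0.28) and 2.43 (SE 0.28) for CST1 and by 2.06 (SE 0.25) and 1.65 (SE 0.25) for CST4, which just missed the threshold with the series as a random replicate block (adjusted p = 0.0528). The 2 genes are close copies, and the probe sets may read each other's transcripts, so they are not counted as separate evidence. Of the remaining genes among the 15 highest, 4 had all 3D arrays above all 2D arrays: ACOX2, a peroxisomal oxidase of bile acid synthesis (2.13 and 2.02), ADGRG1, an adhesion G protein-coupled receptor (1.87 and 2.12), CA12, a hypoxia-responsive carbonic anhydrase (1.91 and 1.82), and MALL, a membrane raft protein (1.56 and 1.63). The others were ENPP1, an ectonucleotidase (2.06 and 1.90), AQP3, a water and glycerol channel (1.84 and 1.87), GBP2, an interferon-inducible GTPase (1.74 and 1.82), AGR2, a protein disulphide isomerase of secretory epithelium (1.70 and 1.93), and S100A4, a calcium-binding protein of motile cells (1.63 and 1.72). For these 5 genes the 3D04 range overlapped the 2D04 range, and at 48 h AQP3 stood at 1.90 in 3D04 and 2.40 in 2D04. Only 1 of the 3 AQP3 probe sets and 5 of the 6 CA12 probe sets were called the same way.

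Among the other genes lowest in 3D04, S100P, a calcium-binding protein of the S100 family, lay between 1.13 and 1.84 in 2D03, between -1.21 and 0.44 in 2D04 and between -2.95 and -2.30 in 3D04. The 3 series did not overlap at all for this gene, and the differences were -3.97 (SE 0.13, adjusted p = 6.54e-16) and -2.29 (SE 0.13, adjusted p = 1.41e-11). MMP1, an interstitial collagenase, was lower by -3.22 (SE 0.36, adjusted p = 4.96e-08) and -2.27 (SE 0.36, adjusted p = 2.46e-05), with a 3D04 range of -0.73 to 1.30 that overlapped the 2D04 range of -0.04 to 3.34. At 48 h the order was turned, with 3D04 at 1.30, 2D04 at -0.04 and 2D03 at 2.38. IL11, a cytokine of the IL-6 family, was lower by -3.50 (SE 0.26, adjusted p = 8.20e-11) and -2.01 (SE 0.26, adjusted p = 1.89e-06). Every 3D array of IL11 (-0.48 to 0.41) lay below every 2D array (1.36 to 4.41), and both of its probe sets were called. IL7R, the interleukin 7 receptor chain, was lower by -2.43 (SE 0.12) and -1.84 (SE 0.12), again without overlap. TAF15, an RNA-binding protein of the FET family, was lower by -1.89 (SE 0.22) and -1.94 (SE 0.22), with scattered 3D values from -2.69 to -0.07.

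Of the 29 gene lists, the amino acid stress programme had the largest share of called genes. Of 38 measured ATF4 targets and amino acid stress genes, 35 were lower in 3D04 than in both 2D series and 0 were higher, beside 11.5% and 13.4% of all genes. The median difference of the list was -1.85 against 2D03 and -1.15 against 2D04, where that of all genes was -0.04 and -0.01. In 13 members all 3D arrays lay below all 2D arrays, which was so for 1.63% of all genes. The members not called were VLDLR, ATF5 and FGF21. The list also separated the 2D series: 32 of 38 members were lower in 2D04 than in 2D03 (median -0.51), beside 27.2% of all genes, so the order was 2D03, 2D04, 3D04 from high to low. By array, the list median lay between 0.72 and 1.23 in 2D03, between -0.37 and 0.53 in 2D04 and between -0.90 and -0.48 in 3D04, with no overlap between 3D04 and either 2D series. With the series as a random replicate block, 32 members were lower, but that fit can understate the spread between series for members that also separate the 2D series. In the fit on series means 0 members passed, although 33 had an unadjusted p under 0.05.

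By role, the transcript of ATF4 itself was lower by -1.21 and -0.73. Downstream regulators differed more. DDIT3 (CHOP), the factor that turns chronic stress towards cell death, was lower by -2.80 and -1.55. ATF3, a stress-induced repressor, lay between -0.26 and 1.11 in 2D03, between -1.72 and 0.05 in 2D04 and between -2.76 and -1.54 in 3D04, with differences of -3.05 (SE 0.19, adjusted p = 6.19e-12) and -2.06 (SE 0.19, adjusted p = 1.71e-08). At 48 h, however, ATF3 stood at -1.54 in 3D04 and -1.72 in 2D04. TRIB3, a pseudokinase that feeds back on the pathway, was lower by -3.34 (SE 0.21, adjusted p = 5.73e-12) and -2.04 (SE 0.21, adjusted p = 7.02e-08), but at 48 h it stood at -0.63 in 3D04 and -1.19 in 2D04. PPP1R15A (GADD34), which lifts the block on translation, was lower by -2.40 and -1.34, and CHAC1, which degrades glutathione, by -3.15 and -1.79.

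The synthesis enzymes were lower too. Asparagine synthetase (ASNS) lay between 1.78 and 2.45 in 2D03, between 0.43 and 2.00 in 2D04 and between -0.85 and -0.10 in 3D04, without overlap. Its differences were -2.60 (SE 0.13, adjusted p = 9.70e-14) and -2.04 (SE 0.13, adjusted p = 3.54e-11), or 4.10-fold to 6.05-fold. The mitochondrial phosphoenolpyruvate carboxykinase PCK2 was lower by -2.50 (SE 0.14, adjusted p = 6.31e-13) and -1.91 (SE 0.14, adjusted p = 2.47e-10). The 3 enzymes of serine synthesis were all lower: PHGDH by -1.31 and -1.04, PSAT1 by -1.87 and -1.37, and PSPH by -1.26 and -0.99. The mitochondrial one-carbon enzymes SHMT2 (-1.36 and -0.90) and MTHFD2 (-1.34 and -1.003) followed, whereas CBS, the enzyme just before CTH in cysteine synthesis, differed by only -0.15 and -0.18.

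Transporters and tRNA charging enzymes completed the group. The neutral amino acid carrier SLC1A4 was lower by -3.16 (SE 0.12, adjusted p = 3.44e-15) and -2.19 (SE 0.12, adjusted p = 7.64e-12), with 4 of 4 probe sets called. SLC7A11, the cystine importer, was lower by -1.99 (SE 0.11, adjusted p = 7.98e-13) and -1.70 (SE 0.11, adjusted p = 7.27e-11). Its partner chain SLC3A2 (-2.14 and -1.40), the leucine carrier SLC7A5 (-2.01 and -1.67), the glutamine carrier SLC1A5 (-1.82 and -1.23) and the arginine carrier SLC7A1 (-1.23 and -1.03) were lower as well. All 7 aminoacyl-tRNA synthetases on the list were called lower, from WARS1 (-2.34 and -1.49) to NARS1 (-0.78 and -0.45). Members of this list outside the naming rule were picked after their values were seen.

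**Figure D3:**
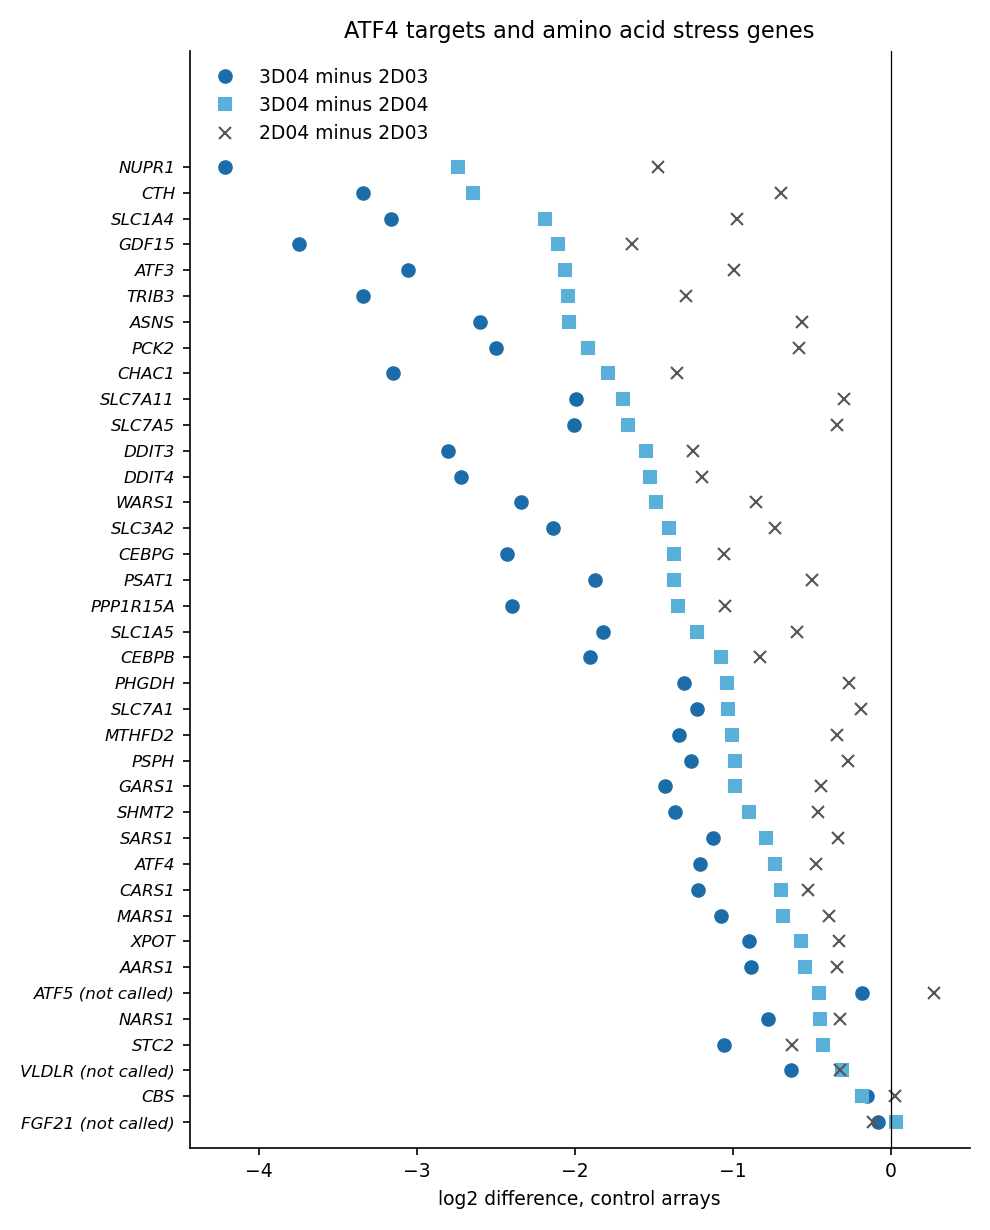
Log2 differences between series in the control arrays for the 38 measured ATF4 targets and amino acid stress genes, sorted by 3D04 minus 2D04. Circles are 3D04 minus 2D03, squares 3D04 minus 2D04 and crosses 2D04 minus 2D03. For most members the 3D04 points lie left of -0.5 and the crosses lie between them and 0, so 2D04 took a middle place, and VLDLR, ATF5 and FGF21 were not called.

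Promoters of the called members were searched for TGATGNAA, a form of the composite element that ATF4 binds with C/EBP partners, on both strands of windows of 250 bases before to 50 after the start (RefSeq, GRCh38.p14). The 8-base motif occurred in 9 of the 31 windows of called members (29.0%), beside 214 of 9592 windows of genes on the array (2.23%) and 1270 of all 35116 windows (3.62%). A match is a description of letters and does not show that a factor bound there in these cells. By the smaller of the 2 differences, SLC1A4, GDF15, TRIB3 and PCK2 ranked above the matched member CHAC1 but had no match or no window. NUPR1 and CTH differed more than every matched member by the same measure, and neither was among the matched members. Of the 6 matched members with the largest differences, ATF3, ASNS and CHAC1 had the match wholly before the start and are shown for that reason. In SLC3A2 and SLC7A1 it lay after the start, and in CARS1 it spanned the start. The 250 bases before the start of each gene are printed 5′ to 3′ on the strand of the gene, with the match in capitals. The ATF3 window is chr1:212565157-212565406 (plus strand, first base of the match 191 bases before the start), that of ASNS is chr7:97872409-97872658 (minus strand, 68 bases before) and that of CHAC1 is chr15:40953221-40953470 (plus strand, 209 bases before, with the motif on the opposite strand).
ATF3: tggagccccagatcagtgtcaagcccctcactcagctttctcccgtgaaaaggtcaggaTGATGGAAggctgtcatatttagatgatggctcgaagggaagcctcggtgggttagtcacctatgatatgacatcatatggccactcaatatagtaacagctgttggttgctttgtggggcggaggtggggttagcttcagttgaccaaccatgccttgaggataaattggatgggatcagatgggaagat
ASNS: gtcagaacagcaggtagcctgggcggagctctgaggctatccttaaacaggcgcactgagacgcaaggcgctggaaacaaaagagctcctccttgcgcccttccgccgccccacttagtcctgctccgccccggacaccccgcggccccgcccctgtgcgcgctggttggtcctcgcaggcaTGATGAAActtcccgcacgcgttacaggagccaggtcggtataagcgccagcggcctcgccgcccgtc
CHAC1: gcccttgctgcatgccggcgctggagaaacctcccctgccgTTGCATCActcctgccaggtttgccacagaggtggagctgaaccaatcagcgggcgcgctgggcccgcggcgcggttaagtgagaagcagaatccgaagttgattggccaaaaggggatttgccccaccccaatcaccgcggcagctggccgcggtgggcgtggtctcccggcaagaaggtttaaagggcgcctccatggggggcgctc

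Neighbouring stress programmes were mixed. Among 20 endoplasmic reticulum chaperones and unfolded protein response genes, 9 were higher (45%) and 3 lower (15%), and with the series as a random replicate block 3 and 2. The disulphide isomerases PDIA4 (0.94, SE 0.08, and 0.82, SE 0.08) and PDIA6 (0.63 and 0.41) had all 3D arrays above all 2D arrays, whereas the unfolded protein sensor target XBP1 (-1.35, SE 0.09, and -0.82, SE 0.09) and HERPUD1 (-1.04 and -0.64), which is also induced by ATF4, were lower. Of 19 oxidative stress and NRF2 targets 10 were lower (52.6%, 5 with the block) and 0 higher (medians -0.48 and -0.26). Besides SLC7A11, which the amino acid list also holds, these included haem oxygenase HMOX1 (-1.70, SE 0.15, and -1.46, SE 0.15, without overlap), thioredoxin reductase TXNRD1 (-0.98 and -0.73) and the glutathione synthesis subunit GCLM (-0.70 and -0.51). Among 18 heat shock genes 4 were higher (22.2%, 0 with the block) and 1 lower, the last being the mitochondrial chaperone HSPA9 (-0.90, SE 0.05, and -0.75, SE 0.05).

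Of 24 integrin and focal adhesion genes 10 were higher (41.7%) and 2 lower (8.33%), beside 13.4% and 11.5% of all genes. In the fit with the series as a random replicate block 7 remained higher and 0 lower, beside 437 and 419 of all 11874 genes. Integrin beta 4 (ITGB4), which with alpha 6 anchors cells to laminin, lay between -1.47 and -0.12 in 2D03, between -1.99 and 0.07 in 2D04 and between 0.06 and 1.62 in 3D04. It was higher by 1.35 (SE 0.12, adjusted p = 2.79e-09) and 1.80 (SE 0.12, adjusted p = 1.61e-10), with 3 of its 4 probe sets called, and the ranges touched only at the edge. The collagen-binding chain ITGA2 was higher by 0.87 (SE 0.09) and 1.16 (SE 0.09) without overlap, and ITGB5 (0.82 and 0.68) and ITGB3 (0.74 and 0.62, 1 of 7 probe sets) were higher as well, though both missed the threshold with the block (adjusted p = 0.0978 and 0.0777). Of 47 collagen and matrix genes 14 were higher (29.8%) and 3 lower (6.38%), 30 were not called, and 6 were higher with the block. The list medians were 0.03 and 0.13. LTBP1, which stores latent TGF-beta in the matrix, was higher by 1.20 (SE 0.12) and 1.79 (SE 0.12). The endostatin-bearing collagen COL18A1 (1.26, SE 0.10, and 1.20, SE 0.10), the transmembrane collagen COL13A1 (1.21 and 1.11) and COL6A1 (0.96 and 1.49, 3 of 8 probe sets) were also higher. Of 11 genes of hyaluronan synthesis, turnover and receptors only 2 were higher (18.2%) and 1 lower (9.09%), and 8 were not called. The same counts of 2 and 1 held with the block, and the list medians were -0.06 and 0.05. The hyaluronan receptor CD44 was lower by -1.03 (SE 0.07) and -0.61 (SE 0.07) in 6 of its 9 probe sets, and the hyaluronidase HYAL2 was higher by 0.71 and 0.59.

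Of 26 actin, SRF and YAP targets 13 were lower (50%) and 3 higher (11.5%), with medians of -0.25 and -0.26. With the block 6 were lower and 0 higher. ANKRD1, a cardiac ankyrin repeat protein and YAP target, lay between 1.69 and 2.77 in 2D03, between 1.99 and 3.36 in 2D04 and between -0.45 and 0.74 in 3D04. It was lower by -2.18 (SE 0.17, adjusted p = 2.43e-10) and -2.31 (SE 0.17, adjusted p = 4.83e-10), without overlap and about equally from both series. CCN1, a secreted matrix-associated YAP target, was lower (-0.70 and -0.72, 1 of 2 probe sets, adjusted p = 0.122 with the block), and the 3 higher members were CALD1 (0.75 and 0.37), ACTB (0.31 and 0.14) and ACTG1 (0.32 and 0.12). CCN2, a YAP target often read beside CCN1, was not called (0.00 and -0.34).

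Of 23 cadherins, EMT factors and mesenchymal markers 5 were higher (21.7%) and 2 lower (8.70%), and of 21 luminal epithelial markers 4 were higher (19.0%) and 2 lower (9.52%). These counts were 3 and 0, and 1 and 1, with the series as a random replicate block. Besides CDH11 and S100A4, the junction protein JUP was higher (0.78, SE 0.14, and 0.61, SE 0.14), while the EMT factor TGFB2 was lower (-1.05, SE 0.16, and -0.88, SE 0.16). Neither passed with the block (adjusted p = 0.218 for JUP and 0.102 for TGFB2). Among luminal markers AGR2, KRT19 (0.84 and 0.34) and the tight junction protein CLDN4 (0.37 and 0.80) were higher, the last 2 with adjusted p = 0.0939 and 0.217 with the block, and KRT18 (-0.67, SE 0.04, and -0.34, SE 0.04) was lower in every 3D array than in any 2D array. Proteases and their inhibitors were mixed, with 7 higher (21.9%) and 6 lower (18.8%) of 32, and 3 and 2 with the block. TIMP3, an inhibitor of matrix metalloproteases, was higher by 1.60 (SE 0.16) and 1.50 (SE 0.16).

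Of 19 cholesterol synthesis and SREBP2 targets 10 were higher (52.6%, beside 13.4% of all genes), 0 were lower and 9 were not called. Of the 10, 2 were higher with the series as a random replicate block. The list median was 0.69 against 2D03 but 0.18 against 2D04, and at 48 h it was 0.06 and -0.02. Between the 2D series 16 of them were higher in 2D04. The sterol reductase TM7SF2 was the member with similar differences from both (0.87, SE 0.14, and 0.95, SE 0.14), with an adjusted p of 0.0800 with the block. CYP51A1 (1.05 and 0.57), LSS (1.17 and 0.56) and HSD17B7 (0.69 and 0.32) stood higher than 2D04, and 2D04 stood higher than 2D03 (0.49, 0.61 and 0.37). Of these LSS missed the threshold with the block (adjusted p = 0.191). Of 11 fatty acid synthesis and SREBP1 targets 4 were higher (36.4%), 1 was lower and 6 were not called, with list medians at 48 h of 0.35 and -0.10. The 1 member higher with the block was the desaturase SCD (1.40, SE 0.12, and 0.65, SE 0.12).

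Growth genes showed a difference between the 2D series more than between cultures. Of 31 G1/S and DNA replication genes 1 was higher (3.23%) and 2 lower (6.45%) in 3D04 than in both, while 27 were higher in 2D04 than in 2D03. The list median was 0.54 against 2D03 and -0.01 against 2D04. The called members were the polymerase subunit POLA1 (0.84 and 0.30), cyclin D1 (CCND1, -0.61, SE 0.08, and -0.41, SE 0.08, below every 2D array) and RFC4 (-0.37 and -0.20). None of the 3 passed with the series as a random replicate block (adjusted p = 0.0549, 0.0762 and 0.197). Of 32 G2/M and mitosis genes 4 were lower (12.5%, near the 11.5% of all genes) and 0 higher, such as the kinesin KIF2C (-0.40 and -0.46) and the kinase PLK1 (-0.31 and -0.37). These 2 missed the threshold with the block (adjusted p = 0.0707 and 0.200), where 1 of the list passed. Of 20 CDK inhibitor and quiescence genes 4 were higher (20%, 0 with the block) and 6 lower (30%, 2 with the block). The growth arrest gene GADD45A was lower by -2.17 (SE 0.17, adjusted p = 2.11e-10) and -1.35 (SE 0.17, adjusted p = 1.38e-06).

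Without any added ligand, readouts of the ERK pathway split. Of 14 ERK output and feedback genes 7 were higher (50%) and 2 lower (14.3%), and with the series as a random replicate block 2 and 1. The feedback inhibitor SPRY1 lay between -0.15 and 0.89 in 2D03, between 0.48 and 1.53 in 2D04 and between 1.67 and 2.29 in 3D04, with differences of 1.59 (SE 0.10, adjusted p = 4.70e-12) and 1.10 (SE 0.10, adjusted p = 8.72e-09). The growth-factor-induced PHLDA1 was higher by 1.19 (SE 0.11) and 1.28 (SE 0.11), and the ERK phosphatase DUSP6 by 0.78 (SE 0.11) and 0.70 (SE 0.11), the latter gene with an adjusted p of 0.0651 with the block. The ETS factor ETV5 (-0.74 and -0.55) and CCND1 were the lower members. Of 21 immediate early genes 8 were lower (38.1%) and 0 higher, among them FOS (-0.79, SE 0.12, and -0.53, SE 0.12), MAFF (-1.29 and -0.84), ZFP36 (-0.97 and -0.47) and ATF3, which is also an ATF4 target. With the block ATF3 alone of the 8 passed, and the adjusted p was 0.163 for FOS, 0.0969 for MAFF and 0.106 for ZFP36. Of these 21, 14 were lower in 2D04 than in 2D03. Of 17 EGFR ligands and growth factors 5 were higher (29.4%) and 2 lower (11.8%), and with the block 2 and 1. TGFA, a ligand of the EGF receptor, was higher by 0.85 (SE 0.08) and 0.89 (SE 0.08), with all 3D arrays (1.14 to 1.50) above all 2D arrays (0.14 to 1.09), and BMP4 was lower by -0.83 (SE 0.09) and -0.88 (SE 0.09), with all 3D arrays below.

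**Figure D4:**
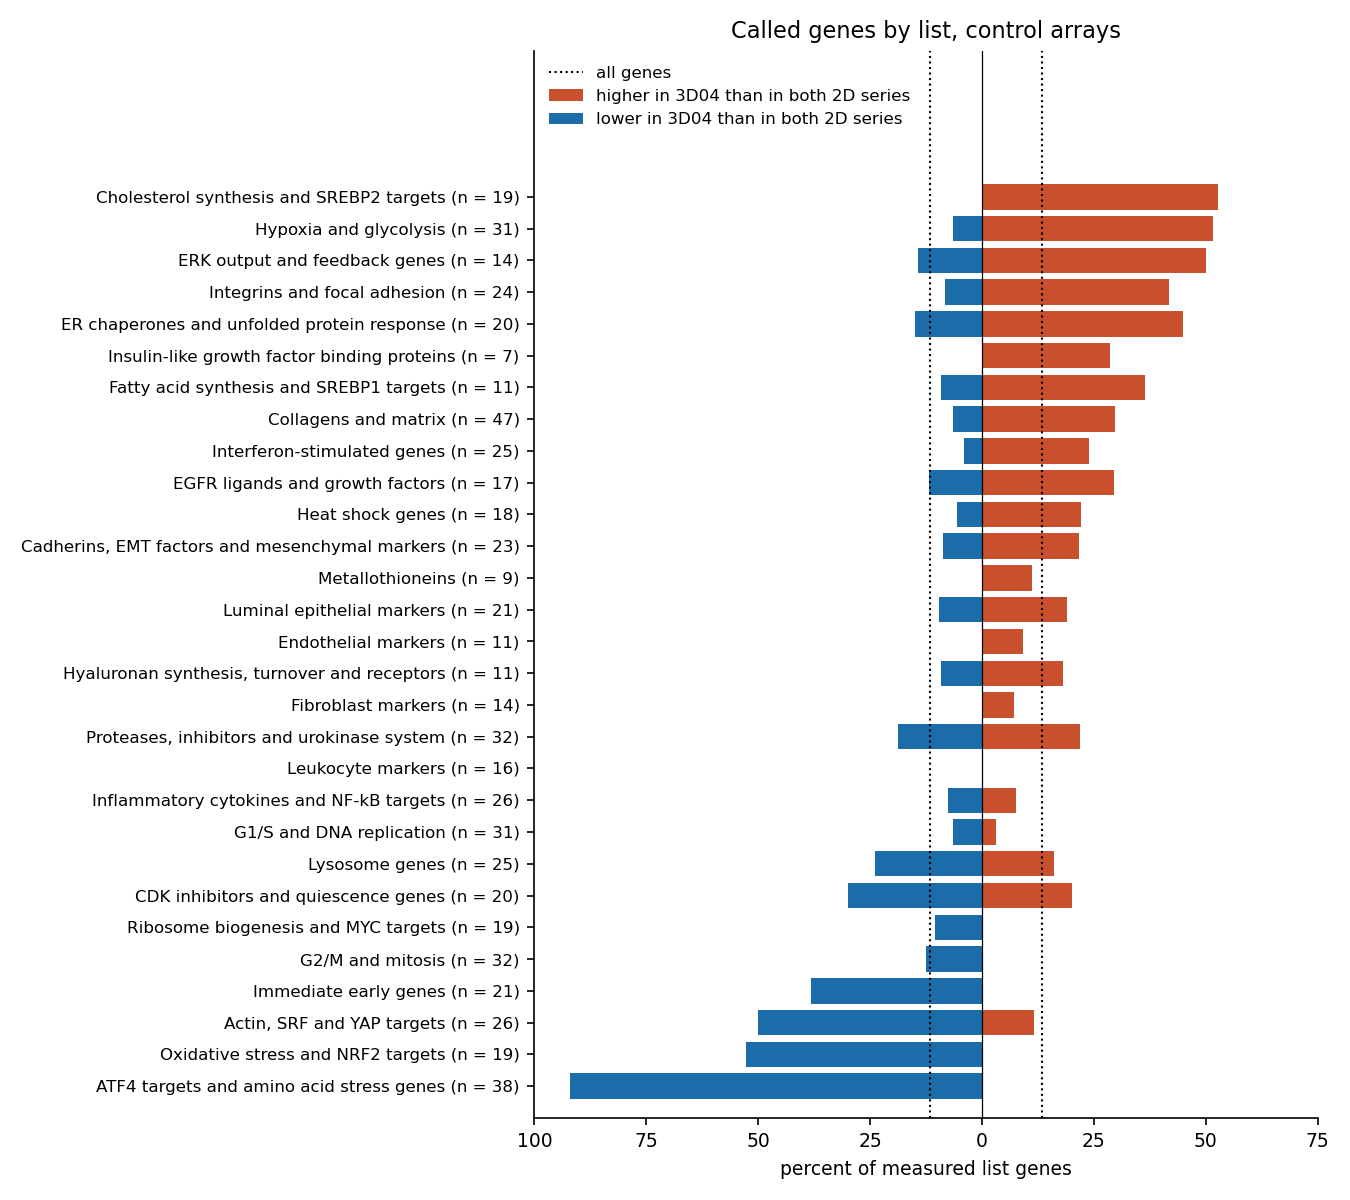
Percent of the measured genes of each list that were higher (red, to the right) or lower (blue, to the left) in 3D04 than in both 2D series, with the number measured beside each name. Dotted lines mark the share of all genes, 13.4% higher and 11.5% lower. The ATF4 list reaches 92.1% lower, and the NRF2 list 52.6%, while the cholesterol list reaches 52.6% higher and the hypoxia list 51.6%.

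The difference in hypoxia and glycolysis genes grew with time. Of 31 measured, 16 were higher (51.6%, beside 13.4% of all genes) and 2 lower (6.45%), with medians of 0.31 and 0.28. With the series as a random replicate block 6 were higher and 1 lower. The aldolase ALDOC was higher by 1.72 (SE 0.07, adjusted p = 8.04e-15) and 1.26 (SE 0.07, adjusted p = 8.34e-12), and the collagen prolyl hydroxylase P4HA2 by 1.05 (SE 0.08) and 1.01 (SE 0.08), besides CA12. The lower members were the vasodilator peptide ADM (-1.83, SE 0.19, and -1.57, SE 0.19) and the glucose transporter SLC2A1 (-0.51 and -0.38). The median difference of the list was 0.07 against 2D03 and 0.07 against 2D04 at 0 h, 0.40 and 0.35 at 12 h, 0.75 and 0.65 at 24 h, and 1.14 and 0.90 at 48 h. A test of the change from the start (0, 0.5 and 1 h) to the late window (24 and 48 h) called 13 of the 31 as rising against both series and 0 as falling, beside 0.969% and 0.573% of all genes. They were VEGFA, ADM, BNIP3, BNIP3L, NDRG1, PDK1, SLC2A1, HK2, TPI1, PGK1, ENO2, P4HA1 and MXI1, which apart from ADM were named after their values were seen. NDRG1 changed by 2.00 and 1.54, the angiogenic factor VEGFA by 1.48 and 1.42, the mitophagy receptor BNIP3 by 1.50 and 1.35 and ADM by 1.36 (SE 0.31) and 1.87 (SE 0.31). The count rested on the 48 h arrays: it was 2 without the 3D array at 48 h, 5 without the 2D04 array and 3 without all arrays of that time.

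Over all genes, 115 differences between 3D and 2D rose and 68 fell from the start to the late window (limma, both adjusted p under 0.05). These counts were 9 and 2 without the 3D array at 48 h, 16 and 5 without the 2D04 array at 48 h, 60 and 26 without the 2D03 array at 48 h, and 371 and 404 without the 3D array at 24 h. Of the 183 genes, 72 changed against the direction of their overall difference, 21 changed in its direction and 90 had no overall call. The membrane protein TMEM45A changed most: in 3D04 it stood at -0.04 and 0.20 at 0 h, 2.60 at 24 h and 4.10 at 48 h, while no 2D array passed 2.15. Its difference rose by 3.34 (SE 0.34, adjusted p = 1.61e-05) against 2D03 and 2.62 (SE 0.34, adjusted p = 0.000410) against 2D04. LOX, which crosslinks collagen, stood at 0.12 in both 3D04 arrays at 0 h, 1.60 at 24 h and 3.85 at 48 h, against 1.98 in 2D03 and 1.14 in 2D04 at 48 h. It passed from the lowest to the highest of the series, a change of 2.52 (SE 0.45, adjusted p = 0.00175) and 2.57 (SE 0.45, adjusted p = 0.00444).

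The difference of the immediate early factor EGR1 changed through the 2D series. It stood in 2D03 at 3.29 at 1 h and 0.12 at 48 h and in 2D04 at 2.95 and 0.22, whereas in 3D04 it stood at 1.62 at 1 h and 1.47 at 48 h. The change of its difference was 2.52 (SE 0.27, adjusted p = 2.17e-05) and 2.57 (SE 0.27, adjusted p = 7.50e-05). The mTORC1 inhibitor DDIT4 stood at -2.21 in both 3D04 arrays at 0 h, -1.15 at 24 h and 1.60 at 48 h, above both 2D series at the end (1.20 and -0.32). TXNIP, which restrains glucose uptake, stood at -1.25 and -1.13 at 0 h and 1.00 at 48 h in 3D04, while 2D03 stood at 2.23 and 2.21 at 0 h and 0.52 at 48 h. The 5 differences that fell most were those of ID1, ID2, ID3 and BAMBI, known targets of BMP signalling, and of the receptor FGFR3. ID1 stood at 2.46 and 2.37 in 3D04 at 0 h and 0.62 at 48 h, against -0.18 and -0.10 and then 1.24 in 2D03, and -0.58 and 0.09 and then 1.76 in 2D04. The changes for ID1 were -1.97 (SE 0.43, adjusted p = 0.00643) and -2.62 (SE 0.43, adjusted p = 0.00282), for ID2 -1.87 and -1.74, for ID3 -1.64 and -2.02, for the pseudoreceptor BAMBI -1.20 and -1.17 and for FGFR3 -1.20 and -1.25. At 0 h the means of these 5 genes were thus higher in 3D04 than in both 2D series, and at 48 h ID1, ID2, ID3 and BAMBI were lower.

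**Figure D5:**
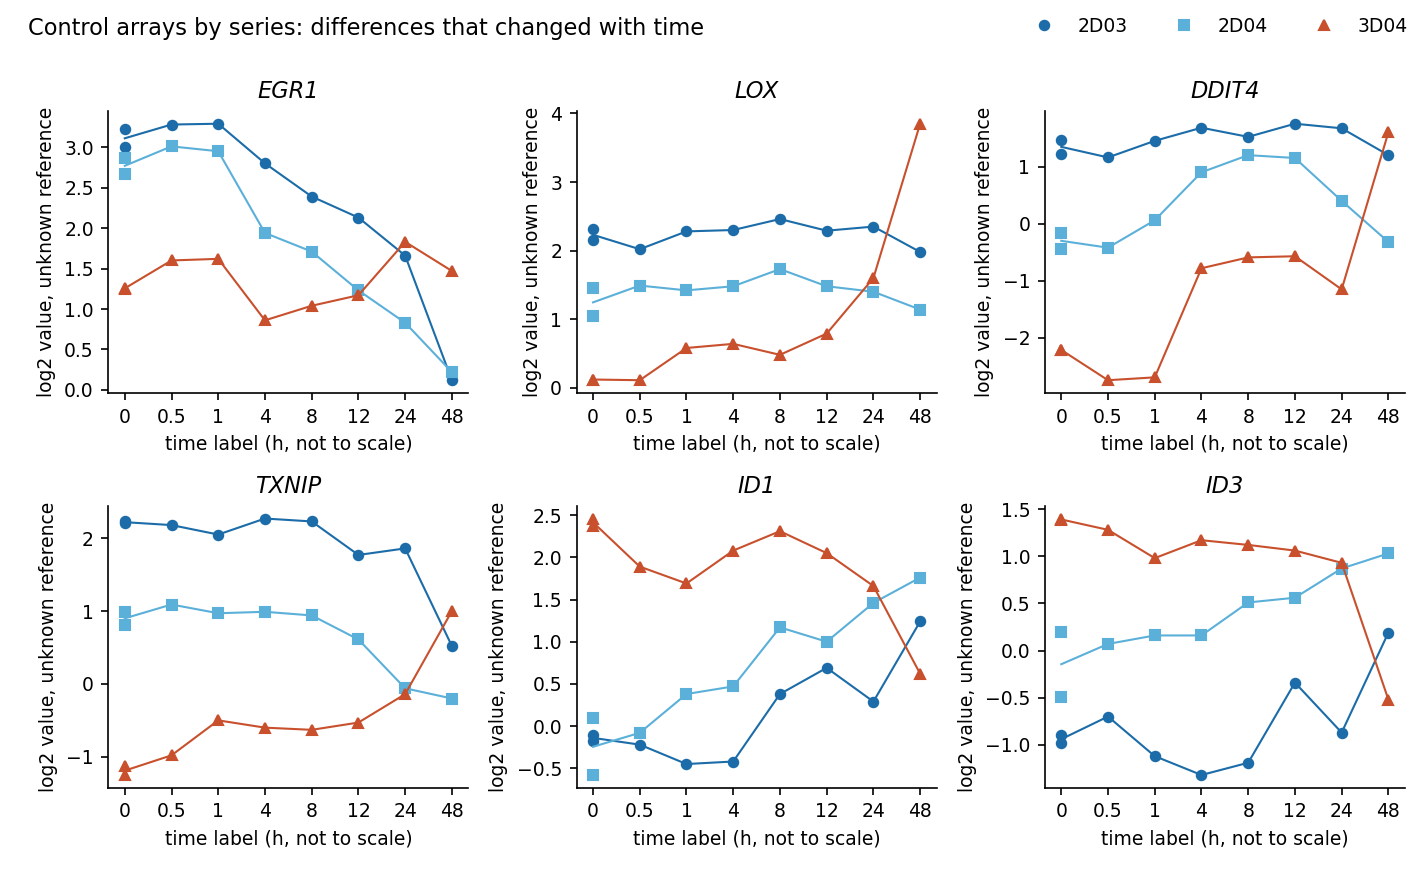
Values of 6 genes in each control array (log2, relative to an unknown reference) against the time label in h, with the axis in label order and not to scale. Circles are 2D03, squares 2D04 and triangles 3D04, and lines join the means at each time. LOX, DDIT4 and TXNIP are highest in 3D04 at 48 h after lying lowest at 0 h, EGR1 is lowest in 3D04 at 0 h and highest at 48 h, and ID1 and ID3 lie above the 2D series in 3D04 at 0 h and below them at 48 h.

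The amino acid stress genes narrowed over the same interval. The median difference of the list against 2D04 was -1.34 at 0 h, -1.20 at 24 h and -0.10 at 48 h, and against 2D03 -1.85, -1.95 and -1.05. At 48 h the 2D04 list median was -0.37, beside 0.22 to 0.53 in the other 2D04 arrays. The late test called 8 members as rising and 0 as falling, beside 0.969% and 0.573% of all genes. The changes were 1.14 (SE 0.28) and 1.10 (SE 0.28) for GDF15, 1.19 (SE 0.38) and 1.89 (SE 0.38) for TRIB3 and 2.58 (SE 0.57) and 2.41 (SE 0.57) for DDIT4. How many of the 8 were called without the 48 h arrays was not counted. Over all genes the late counts of 115 and 68 fell to 9 and 2 without the 3D array at 48 h. For the 133 genes past 1 on the log2 scale, the median difference in the called direction from 2D04 was 1.48 at 0 h, 1.23 at 24 h and 0.59 at 48 h. From 2D03 it was 1.73 at 0 h, 1.91 at 24 h and 1.38 at 48 h, so that it narrowed at 48 h and mostly against 2D04. The share with the called sign against both series was 99.2% or more up to 24 h and 78.2% at 48 h. These genes were chosen by their differences over the same arrays, so a high share at most times follows from that choice. On the first principal component of all genes (50.3% of the variance), the 2D04 arrays stood at -4.64 at 0 h and 18.4 at 48 h, where 3D04 lay between 22.7 and 27.9 and 2D03 between -31.5 and -10.6. Whether cell density, medium use or another feature of late culture moved with this was not tested.

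The other arms compared the series on separate arrays, although from the same 3 series, so they do not separate culture from series either. In the 21 EGF arrays after 0 h, 1177 genes (9.91%) were higher and 1209 (10.2%) lower in 3D04 than in both 2D series. Of the 2963 genes called in the control arrays, 2089 (70.5%) were called the same way with EGF and 0 the opposite way, and 133 of the 133 genes past 1 on the log2 scale were called again. NUPR1 differed there by -4.03 and -2.71, CTH by -3.27 and -2.56, GDF15 by -3.79 and -2.26, CEMIP by 3.62 and 2.94 and CDH11 by 2.12 and 1.98. With DMSO and EGF, where 1285 genes (10.8%) were higher and 1231 (10.4%) lower, 2170 of the 2963 (73.2%) were called the same way, with 133 of the 133. With U0126, which blocks the kinase that activates ERK, 1040 genes (8.76%) were higher and 744 (6.27%) lower, and 1478 of the 2963 (49.9%) were called the same way and 1 the opposite way, the EGFR ligand EREG. Of the 133 genes past 1 on the log2 scale 123 were called the same way with U0126. NUPR1 differed there by -3.78 and -3.03, CEMIP by 3.76 and 3.28 and CDH11 by 2.27 and 2.06. FABP4 stood at 1.47 and 1.55 under U0126 beside 3.32 and 2.53 in the controls, DUSP6 at 0.25 and 0.18 beside 0.78 and 0.70, and IL11 at -2.40 and -1.16 beside -3.50 and -2.01. These differences between arms were not tested.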

How the data were processed

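RNA of MDA-MB-231 cells was measured on Affymetrix arrays. The values are the deposited table, RMA signals per the submitters' processing notes, presumed to be log2 and centred by the authors on an unknown reference for each probe set; neither the log base nor the centring is stated. Of 22930 probe sets, 524 were array controls, and 19290 with 1 gene symbol gave 11874 genes. Another 125 had several symbols and 2866 none. The probe set with the largest SD over all 96 arrays was read for a gene, which can favour larger differences. The 27 control arrays were fitted in limma 3.58.1 (R 4.3.3; lmFit, eBayes with a variance trend) on series and time terms, with 17 residual degrees of freedom, and 13 in the late test. Adjusted p-values are Benjamini-Hochberg over all genes, from moderated tests in limma, and pairs of values are differences from 2D03 and then from 2D04, on the log2 scale. The number of arrays limits the precision. In simulated data, 96% of 100 genes changed by 0.5 log2 and 99% of 100 changed by 1 were recovered with 1 false call, and 14% and 75% with 0 false calls in the late test. Outside the changed genes, the first simulation held no difference between series, and that of the late test no change of such differences with time. The false calls therefore cannot reflect errors that arise from differences between series.

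The members and the 29 gene lists (627 of 692 entries measured) were chosen with earlier results of these data known. Named genes are the 15 highest and 15 lowest called genes by the smaller of the 2 differences, up to 4 called genes per list, NUPR1, CTH, GDF15, CEMIP and CDH11, and for the late test the 5 highest and 5 lowest. Genes outside this rule were picked after their values were seen. Alternatives were median centring, quantile normalization, other probe set rules, an SD filter, no trend, array weights, a series block, series means, a fold minimum, and each array or time left out. Leaving out both late times 1 at a time, and the hypoxia count, were added after seeing the data.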

Additional observations from a re-analysis of the deposited data

Results flagged for a closer look

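In the 4 2D control arrays at 0 h, 5 of 120 genes checked had 1 array far from the others, which does not exceed the about 1 in 20 groups that chance gives. Replicates 1 and 3 were of 2D03 and replicates 2 and 4 of 2D04, so these arrays also differed by series. TFPI stood at 1.46 (others 0.85 to 0.88) and CCN1 at 2.35 (others 2.22 to 2.24) in replicate 1, CYP51A1 at 0.37 (others -0.11 to -0.07) and FOXO3 at -0.12 (others 0.09 to 0.12) in replicate 4, and NRG1 at 2.16 (others 2.64 to 2.68) in replicate 3.

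Over the 9 control arrays of a series, 5 of 21 sets of values checked had such an array, and 4 of these arrays were at 48 h. CTH stood at 2.16 in 2D03 (others 2.70 to 2.97), at 0.11 in 2D04 (others 1.83 to 2.52) and at 0.79 in 3D04 (others -0.95 to -0.37). The median of the ATF4 list in 2D04 stood at -0.37 at 48 h (others 0.22 to 0.53). The actin 5-prime minus 3-prime value was -0.36 in 2D04 at 0 h, replicate 2 (others -0.12 to 0.11).

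The difference between 3D and 2D changed from the start to the late window in 22 named genes (limma, both adjusted p under 0.05). The mean of both changes was positive for TMEM45A (2.98), EGR1 (2.55), LOX (2.55), DDIT4 (2.49), TXNIP (2.43), CST1 (2.37), CST4 (2.21), ADM (1.62), TRIB3 (1.54), GADD45A (1.42), MAFF (1.31), GDF15 (1.12) and HMOX1 (1.08). It was negative for ID1 (-2.29), ID3 (-1.83), ID2 (-1.80), FGFR3 (-1.22), BAMBI (-1.19), CCL2 (-1.15), TIMP3 (-1.12), IGFBP4 (-0.82) and COL6A1 (-0.70).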

How the results depend on the processing

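The culture cannot be separated from the single 3D series, and this is the widest limit. With the series as a random replicate block (consensus correlation 0.403), 437 genes were higher and 419 lower, and 47 of the 120 named genes no longer passed, 115 on the series means. The block fit shares its correlation over all genes and does not make the series the unit. On the 3 series means, where the lone 3D mean is assumed to vary like the 2D means, 0 were higher, 0 were lower and 0 of the ATF4 list passed. Asking for at least 1 log2 left 66 higher, 67 lower and, between the 2D series, 75. Leaving out 1 array at a time gave 1459 to 1796 higher, 1258 to 1459 lower, 5840 to 6475 between the 2D series and 35 to 36 of the ATF4 list. The late test was less stable: 9 to 371 rose, 2 to 404 fell and 2 to 16 of the hypoxia list rose. Chosen after seeing the data, leaving out all 24 h arrays gave 294 and 285, and leaving out all 48 h arrays gave 12 and 0, with 3 of the hypoxia list. Centring each array on its median gave 1728 higher and 1185 lower, 59.3% higher where the reported fit had 53.8%. No called direction reversed in the 120 named genes. The mean differences of TMEM45A (-0.21 to 0.28) and BAMBI (-0.03 to 0.15), neither of them called, took both signs on leaving out 1 array. Of the 2963 called genes, 9 had the opposite sign with the mean of the probe sets of a gene (1 of them called so) and 4 with the probe set chosen on the other arms, and 0 under the other settings. Other settings kept the counts within 1.5 times. As only differences from an unknown reference are known, probe sets near background could not be marked.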

Other observations

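Of 25 interferon-stimulated genes 6 were higher (24%) and 1 lower (4%) in 3D04 than in both 2D series, beside 13.4% and 11.5% of all genes. The antiviral enzymes OAS1 (1.59, SE 0.18, and 1.00, SE 0.18) and OAS3 (0.71 and 0.37) and the interferon signalling factor IRF9 (0.43 and 0.78) were higher, and IFIT2 (-0.57 and -0.41) was lower. With the series as a random replicate block 0 of the 25 passed, and the adjusted p was 0.0609 for OAS1, 0.0547 for OAS3, 0.0917 for IRF9 and 0.112 for IFIT2. From the start to the late window the differences of 4 members fell and 0 rose, beside 0.573% and 0.969% of all genes. The 4 were IFIT1, IFIT3, ISG15 and OASL, named after their values were seen. How many of them fell without the 48 h arrays was not counted. Over all genes the falling count went from 68 to 2 without the 3D array at 48 h. Of 25 lysosome genes 4 were higher (16%) and 6 lower (24%), and with the block 0 and 2. The melanosomal glycoprotein GPNMB (-1.12, SE 0.10, and -1.09, SE 0.10) was lower in every 3D array than in any 2D array, and the autophagy receptor SQSTM1 was lower by -1.43 (SE 0.15) and -1.04 (SE 0.15). Of 7 insulin-like growth factor binding proteins 2 were higher, IGFBP4 (1.09, SE 0.10, and 0.95, SE 0.10) and IGFBP6 (0.24 and 0.74), the latter with an adjusted p of 0.0971 with the block. Of 26 inflammatory cytokines and NF-kB targets 2 were higher (7.69%), CCL2 (0.99 and 0.56) and CSF1 (0.40 and 0.40), and 2 lower (7.69%), IL11 and NFKBIE (-0.24 and -0.36). Both shares are below those of all genes, and with the block IL11 alone passed. Of 19 ribosome biogenesis and MYC targets 2 were lower (10.5%, 1 with the block) and 0 higher, and of 9 metallothioneins and zinc transport genes 1 was higher, the zinc exporter SLC30A1 (0.85, SE 0.20, and 0.91, SE 0.20; adjusted p = 0.284 with the block).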
